A study of Mus musculus with 27 samples.

Results

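The genes described here are the aldehyde oxidases *Aox1* and *Aox3* and 7 genes of vitamin A (retinoid) metabolism in the mouse liver, *Rbp4*, *Lrat*, *Retsat*, *Rdh16*, *Rdh7*, *Aldh1a1* and *Cyp26a1*. They are 9 of the 23191 gene symbols in the count table and were found by symbol on 10 rows, because *Aldh1a1* stands on 2 rows, which were summed. The genes were selected on their roles while their measured differences between diets and genotypes in these mice were already known. The differences and adjusted p-values below therefore describe selected genes, and nothing is read from how many of the 9 passed a threshold.

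RNA-Seq was performed on livers of 27 male C57BL/6J mice, to compare HGFAC-KO mice with controls on each diet. HGFAC is a protease that liver cells secrete and that activates hepatocyte growth factor, and the KO mice carry in all tissues a CRISPR/Cas9 deletion near the 5′ end of *Hgfac*. Littermates served as controls. The groups were 7 controls and 6 KO mice fed chow and, fed a diet high in fat and sucrose (HF/HS), 7 controls and 7 KO mice, and livers were taken after 4 weeks on the diet. The study's text gives a start at 8 weeks of age for a longer HF/HS feeding experiment, and the age of the mice sequenced is not given in the sources used here. Each library is 1 mouse.

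Retinol leaves the liver bound to retinol-binding protein and is stored, mainly in hepatic stellate cells, as retinyl esters. Cells oxidize retinol reversibly to retinal and then irreversibly to retinoic acid, which activates nuclear receptors (RAR and RXR) on DNA and is cleared by the CYP26 hydroxylases, whose genes are themselves retinoic acid targets. Aldehyde oxidases are cytosolic enzymes with a molybdenum cofactor that oxidize many aldehydes and nitrogen heterocycles, and retinal is among the aldehydes they can use.

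Total counts ran from 36056177 to 57298657 per mouse (median 47239271), and the lowest group mean of a member was 156 counts, for *Cyp26a1* in controls on HF/HS. Levels are given as CPM, the counts of a gene scaled to the total on named genes of the library after TMM normalization. On chow, *Hgfac* had 182.7 to 220 CPM in controls against 65.64 to 84.75 CPM in KO mice, and on HF/HS 246.6 to 292.9 CPM against 81.64 to 100.6 CPM, so every mouse was on the side its label gives. Counting covered the whole gene and not the deleted stretch alone. None of the 7 hepatocyte markers was at 0 in every mouse of a group, and their summed level had group medians between 81000 and 103000 CPM. On chow the sum was 78300 to 89600 CPM in controls and 91000 to 99700 CPM in KO mice, without overlap, and on HF/HS it was 76700 to 97000 CPM and 88100 to 114000 CPM. In whole liver, fewer cells of a type and less RNA per cell cannot be told apart.

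Per kilobase of exon, the mean of the 4 group means was 2050 CPM for *Rbp4*, 594.3 for *Rdh7*, 353.9 for *Retsat*, 208.5 for *Aldh1a1*, 91.86 for *Aox3*, 14.18 for *Aox1*, 11.93 for *Rdh16*, 8.56 for *Cyp26a1* and 3.14 for *Lrat*. By this mean, the carrier of retinol in blood was the most abundant of the 9 transcripts, and the enzyme that esterifies retinol was the least abundant. On HF/HS, however, *Cyp26a1* was below *Lrat* by median per kilobase. The medians were 1.654 against 2.593 CPM in controls and 1.384 against 2.718 CPM in KO mice. When the 4 groups were ordered by median for each gene, neighbouring groups overlapped in all cases but 1, *Cyp26a1* in KO mice on chow against controls on HF/HS.

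**Figure D1:**
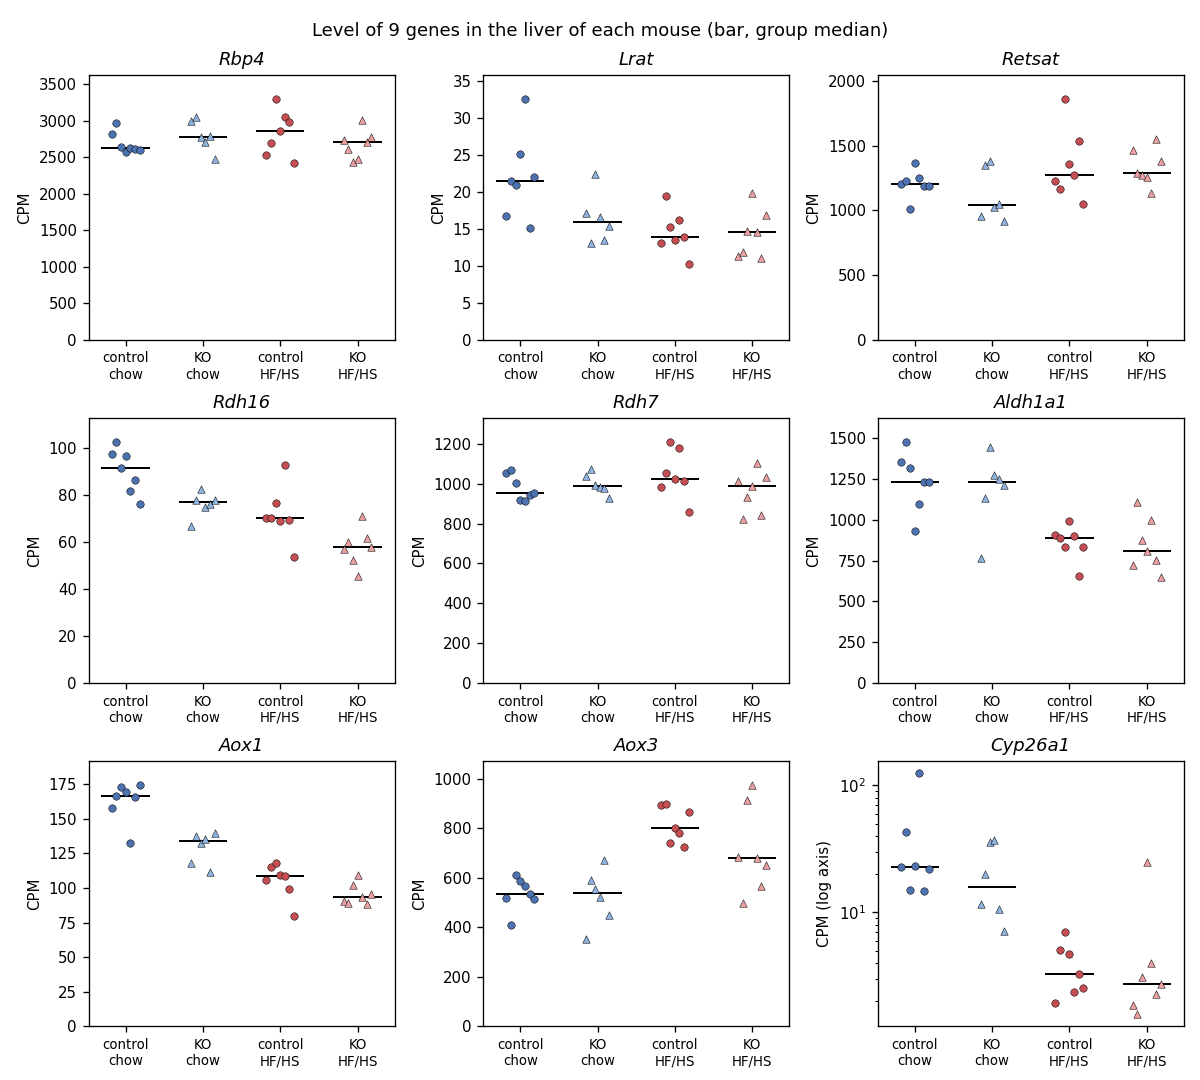
Level of each gene in CPM (vertical axes from 0, log axis for *Cyp26a1*) in each of the 27 mice, with circles for controls, triangles for KO mice, blue for chow, red for HF/HS and a bar at the group median. *Aox1* is lower and *Aox3* higher in every control on HF/HS than in every control on chow, and *Cyp26a1* shows 1 mouse far above its group on each diet.

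With HF/HS diet, control mice had less *Cyp26a1*, *Aox1*, *Lrat*, *Aldh1a1* and *Rdh16* and more *Aox3*. Those 6 of the 9 genes passed an adjusted p of 0.05, 5 of them lower and 1 higher, where 10.5% of all 13525 genes tested passed, 5.60% lower and 4.93% higher. Ranges of the 2 diets did not overlap for *Aox1*, *Aox3* and *Cyp26a1*, as for 3.56% of all genes. The median log2 fold change of the 9 genes was -0.33, against 0.00 over all genes. In KO mice 2 of the 9 passed, *Aox1* and *Rdh16*, both lower, where 5.89% of 13613 genes passed, 2.73% lower and 3.17% higher. Only *Aox1* had separate ranges there, as 3.03% of genes did, and the median of the 9 was -0.18.

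**Figure D2:**
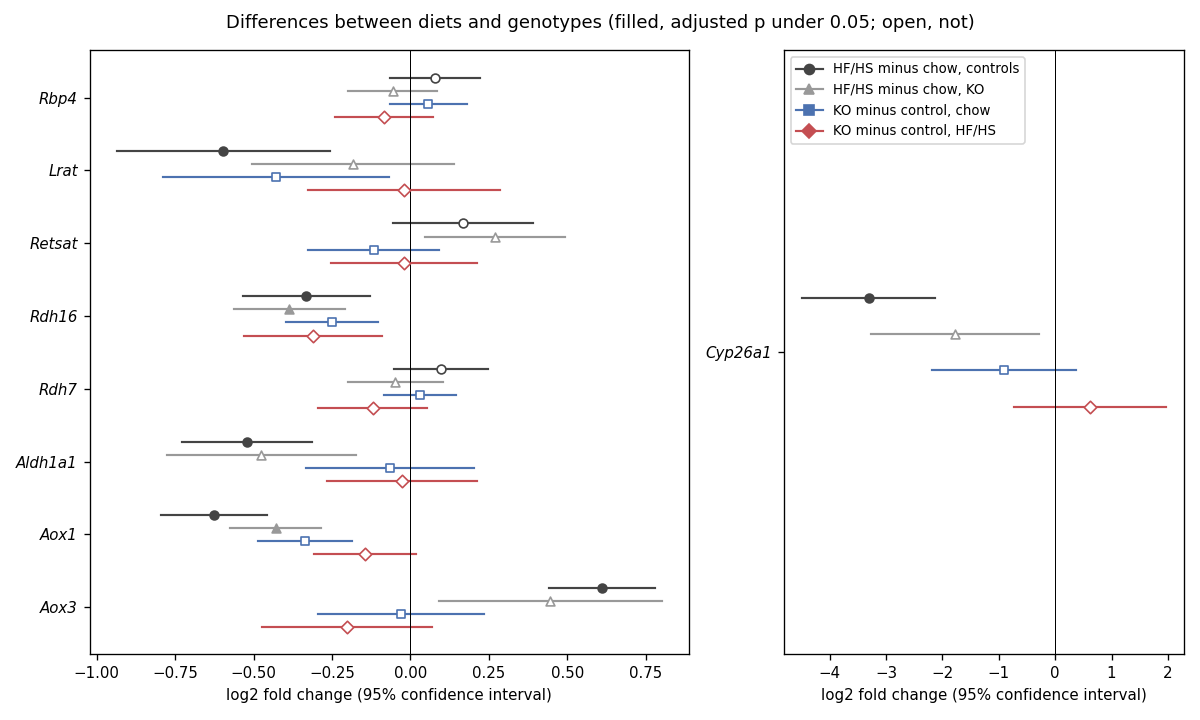
Log2 fold change with its 95% confidence interval (horizontal axes, with a wider scale for *Cyp26a1*) for 4 comparisons of each gene, filled where the adjusted p is under 0.05. Intervals of *Aox1* and *Rdh16* lie below 0 for the diet in both genotypes and for the genotype on chow, and *Aox3* lies above 0 for the diet in both genotypes.

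*Rbp4* encodes the protein that carries retinol from the liver through the blood. Its level ran from 2577 to 2972 CPM (median 2622) in controls on chow, from 2478 to 3057 (2783) in KO mice on chow, from 2425 to 3301 (2866) in controls on HF/HS and from 2437 to 3018 (2705) in KO mice on HF/HS. All 4 groups overlapped. The log2 fold change with diet was 0.08 (95% interval -0.06 to 0.22) in controls and -0.06 (-0.20 to 0.09) in KO mice, and the adjusted p was 0.516 and 0.656. Of the 9 listed genes of retinol binding and transport, 4 could be tested and none passed in either diet or either genotype comparison.

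*Lrat* encodes lecithin retinol acyltransferase, which makes retinyl esters and is a gene of stellate cells in the liver. On chow, controls had 15.13 to 32.58 CPM (median 21.47) and KO mice 13.13 to 22.41 CPM (15.97). On HF/HS, controls had 10.31 to 19.51 CPM (13.88) and KO mice 11.13 to 19.9 CPM (14.54). Controls on chow reached the highest levels, and all 4 ranges overlapped between 15.13 and 19.51 CPM. In controls *Lrat* fell with diet by 0.60 ± 0.16 (SE) on the log2 scale (adjusted p = 0.0273), and this call was lost without control chow replicate 4 (-0.56, adjusted p = 0.0513), without control HF/HS replicate 1 (-0.57, 0.0533) and without control HF/HS replicate 6 (-0.58, 0.0504). In KO mice the log2 fold change was -0.18 ± 0.15 (adjusted p = 0.511). The other 12 stellate cell markers summed to between 292 and 379 CPM (median 328) in controls on chow and between 331 and 432 (395) in controls on HF/HS, and 11 of these 12 had positive log2 fold changes with HF/HS, with *Colec11*, *Ecm1* and *Hgf* past the threshold, where 4.93% of all genes were called higher. *Lrat* and the other stellate markers therefore differed in direction, and no stellate marker was at 0 in every mouse of a group. The part of stellate cell number in the *Lrat* difference was not tested.

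Of 11 tested genes that make or hydrolyse retinyl esters, *Lrat* included, 5 passed in controls and all 5 were lower, where 5.60% of all genes were lower past the threshold. The 6 that did not pass included 4 with positive log2 fold changes, such as *Pnpla3* at 0.62. In KO mice 2 passed, both lower, where 2.73% of all genes did. The carboxylesterase *Ces2a* ran from 309.1 to 355.8 CPM on chow and from 107.4 to 158.3 CPM on HF/HS in controls, and fell by 1.37 ± 0.08 on the log2 scale (adjusted p = 3.77e-08). In KO mice it ran from 222.6 to 436.8 CPM and from 73.48 to 154.8 CPM, and fell by 1.53 ± 0.19 (adjusted p = 0.000403). *Ces2a* ranges thus did not overlap between diets in either genotype. *Ces1g*, another carboxylesterase, fell by 0.63 ± 0.16 in controls (adjusted p = 0.0185), and *Lipe*, hormone-sensitive lipase, fell by 0.55 ± 0.08 (adjusted p = 0.000557). *Pnpla2*, adipose triglyceride lipase, fell by 0.36 ± 0.09 in KO mice (adjusted p = 0.0377, and between 0.0503 and 0.085 without KO chow replicates 2, 4, 5 or 6 or KO HF/HS replicates 1, 3, 4, 5 or 7) and was also among the 5 in controls. Carboxylesterases are a large family of similar genes whose reads could be split between copies by the counting.

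*Retsat* encodes retinol saturase, which makes dihydroretinol from retinol. Chow-fed controls had 1014 to 1368 CPM (median 1201) and KO mice 916.3 to 1381 CPM (1038). HF/HS-fed controls had 1049 to 1861 CPM (1273) and KO mice 1137 to 1549 CPM (1286). The log2 fold change with diet was 0.17 ± 0.11 in controls (adjusted p = 0.347) and 0.27 ± 0.11 in KO mice (adjusted p = 0.144). All groups overlapped.

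*Rdh16* and *Rdh7* encode microsomal dehydrogenases that oxidize retinol and some steroids, and they lie 37462 bases apart on chromosome 10 of GRCm38 (127801152 to 127846565 on the plus strand and 127884028 to 127888817 on the minus strand). For *Rdh16*, chow-fed controls had 76.3 to 102.7 CPM (median 91.75) and KO mice 66.9 to 82.65 CPM (77.11), while HF/HS-fed controls had 53.92 to 92.83 CPM (70.24) and KO mice 45.48 to 71.38 CPM (58.04). Medians were lower on HF/HS in each genotype and lower in KO mice on each diet, and neighbouring groups overlapped. *Rdh16* fell with diet by 0.33 ± 0.10 in controls (adjusted p = 0.0364) and fell by 0.39 ± 0.08 in KO mice (adjusted p = 0.0125). The call in controls was lost without any 1 of control chow replicates 1, 2, 3, 4 or 6 or control HF/HS replicates 1, 2 or 6, with adjusted p between 0.0529 and 0.0726 and log2 fold changes between -0.34 and -0.30. *Rdh7*, in contrast, had medians of 953.6 and 1023 CPM in controls and 989 and 987.6 CPM in KO mice on chow and HF/HS. Its log2 fold change with diet was 0.10 (-0.05 to 0.25) in controls and -0.05 (-0.20 to 0.10) in KO mice.

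Both genes belong to a cluster of similar dehydrogenase genes on chromosome 10, so reads could have been assigned to a neighbour in the counting. The neighbour *Rdh16f2*, chosen after its values were seen, had 41.81 to 68.89 CPM in chow-fed controls and 60.87 to 93.93 CPM in KO mice, and 40.25 to 61.31 CPM in HF/HS-fed controls and 50.29 to 86.08 CPM in KO mice. *Rdh16f2* was thus at higher medians in KO mice, opposite to *Rdh16*, with no pass in either genotype comparison (adjusted p = 0.801 and 0.411). Among the 20 tested retinol and retinal oxidoreductases, 2 were lower and 1 higher past the threshold in controls, and 2 were lower in KO mice, where 10.5% and 5.89% of all genes passed. *Rdh11*, which interconverts retinal and retinol, fell by 0.64 ± 0.10 in controls (adjusted p = 0.00082) and fell by 0.54 ± 0.14 in KO mice (adjusted p = 0.0299, and between 0.0522 and 0.0614 without KO chow replicate 5 or KO HF/HS replicates 1, 2 or 6). *Adh4*, an alcohol dehydrogenase that oxidizes retinol, rose by 0.30 ± 0.07 in controls (adjusted p = 0.0105), a call that was lost with the replicate number as a term (adjusted p = 0.0549) and in a fit of all 27 mice (adjusted p = 0.133).

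*Aldh1a1* encodes retinal dehydrogenase, which makes retinoic acid from retinal. Chow-fed controls had 933.7 to 1475 CPM (median 1231) and KO mice 767.8 to 1445 CPM (1232). On HF/HS the controls had 658.2 to 990.5 CPM (885.1) and the KO mice 651.1 to 1109 CPM (807.3). Both HF/HS groups had lower medians than the chow groups, and the ranges overlapped in each genotype. In controls it fell by 0.52 ± 0.10 on the log2 scale (adjusted p = 0.00257). The log2 fold change in KO mice was -0.48 ± 0.14 and did not pass by edgeR (adjusted p = 0.0601). It did pass by DESeq2 (adjusted p = 0.0156), in an edgeR fit of all 27 mice (adjusted p = 0.0201), without KO chow replicate 1 (-0.58, adjusted p = 0.0113), whose 767.8 CPM was the lowest on chow, and without replicate 2 (-0.56, 0.0273) or replicate 5 (-0.52, 0.0462) of the KO mice on HF/HS. Of 4 tested retinal dehydrogenases, *Aldh1a1* included, 2 passed in controls and 1 in KO mice, all lower, against 5.60% and 2.73% of all genes called lower. The close relative *Aldh1a7* passed in both genotypes, and fell by 0.42 ± 0.08 in controls and fell by 0.51 ± 0.11 in KO mice (adjusted p = 0.00222 and 0.00936). Reads could have been split between these related genes in the counting.

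*Aox1* and *Aox3* encode the main aldehyde oxidases of this liver table, in which *Aox2* and *Aox4* did not exceed 0.137 CPM in any mouse. They lie head to tail on the plus strand of chromosome 1 in GRCm38, from 58029931 to 58106413 and from 58113130 to 58200698, with 6716 bases between them. The 250 bases before each start in RefSeq (GRCm38.p6, chr1:58029719-58029968 and chr1:58112886-58113135) are shown because the 2 neighbouring genes moved in opposite directions. Capitals mark the first of the runs of 7 letters that both stretches share, and no longer run is shared.
Aox1: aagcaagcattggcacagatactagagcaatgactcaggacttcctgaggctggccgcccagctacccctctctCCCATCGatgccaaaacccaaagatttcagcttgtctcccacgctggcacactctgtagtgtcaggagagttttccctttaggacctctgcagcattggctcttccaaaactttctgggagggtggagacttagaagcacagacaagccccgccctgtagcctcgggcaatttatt
Aox3: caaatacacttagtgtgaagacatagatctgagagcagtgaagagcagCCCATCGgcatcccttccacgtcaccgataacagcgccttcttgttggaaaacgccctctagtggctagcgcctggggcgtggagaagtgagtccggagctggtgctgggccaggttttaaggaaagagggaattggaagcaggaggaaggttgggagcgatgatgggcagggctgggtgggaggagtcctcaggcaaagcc

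*Aox1* ran from 132.4 to 174.3 CPM (median 166.2) in controls on chow and from 111.5 to 140.1 CPM (133.8) in KO mice on chow. On HF/HS the controls had 79.88 to 118.3 CPM (108.9) and the KO mice 88.39 to 109.4 CPM (93.46). Within each genotype every mouse on HF/HS was below every mouse on chow. With diet *Aox1* fell by 0.63 ± 0.08 on the log2 scale in controls (-35.2%, adjusted p = 0.000112) and fell by 0.43 ± 0.07 in KO mice (-25.8%, adjusted p = 0.0018), and both calls held without any 1 mouse.

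*Aox3* moved the other way. It ran from 410.9 to 612.4 CPM (median 533.9) in controls on chow and from 725 to 899.2 CPM (800.4) in controls on HF/HS, with no overlap. The rise was 0.61 ± 0.08 on the log2 scale (52.7%, adjusted p = 0.000148) and held without any 1 mouse. KO mice spread more widely, from 352 to 673.9 CPM (539.1) on chow and from 496.9 to 974.5 CPM (680.4) on HF/HS, and their log2 fold change of 0.45 ± 0.17 did not pass (adjusted p = 0.128), although it did in a fit of all 27 mice (adjusted p = 0.0412). The ratio of *Aox3* to *Aox1* level per kilobase of exon had a median of 4.06 (3.05 to 5.29) in controls and 4.98 (3.68 to 7.47) in KO mice on chow, and of 9.06 (7.76 to 13.4) in controls and 9 (6.91 to 11.1) in KO mice on HF/HS. *Aox3* thus stood above *Aox1* in every mouse, and the ratio was higher on HF/HS than on chow in every control. The KO mice overlapped in this ratio between diets.

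**Figure D3:**
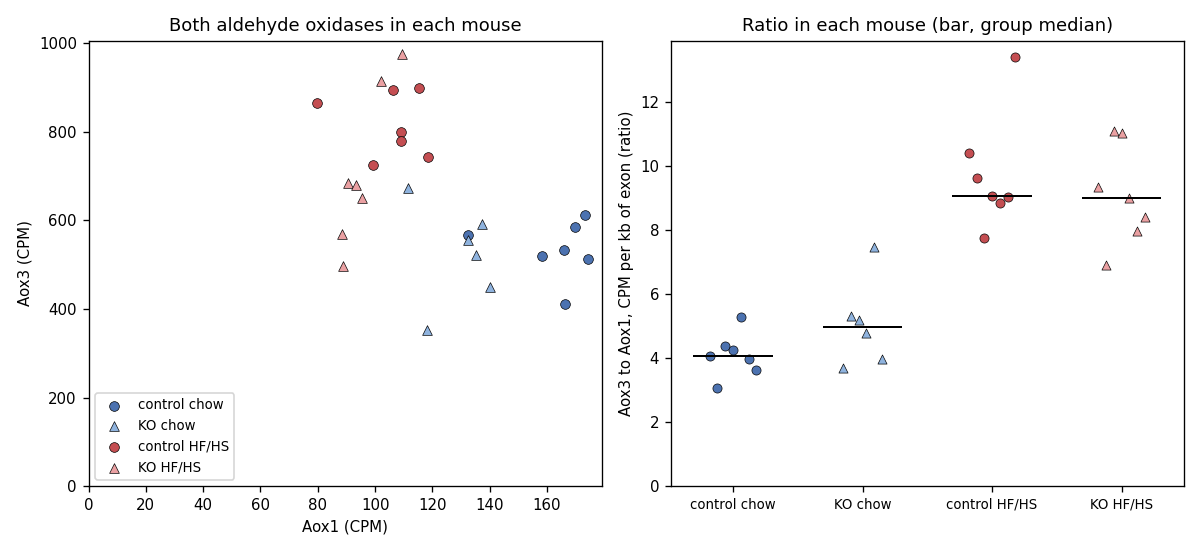
Left, *Aox3* against *Aox1* level in CPM in each of the 27 mice. Right, ratio of *Aox3* to *Aox1* level per kilobase of exon in each mouse with a bar at the group median. Circles are controls, triangles KO mice, blue chow and red HF/HS, and the HF/HS medians of 9.06 and 9 lie above the chow medians of 4.06 and 4.98.

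Among 6 tested molybdenum enzymes, the aldehyde oxidases included, those 2 were the only ones past the threshold in controls, where 10.5% of all genes passed. In KO mice, where 5.89% passed, *Aox1* and *Suox*, sulfite oxidase, were called, and *Suox* fell by 0.20 ± 0.05 (adjusted p = 0.0319), with adjusted p between 0.0514 and 0.0826 without KO chow replicates 2, 3, 4 or 5 or KO HF/HS replicates 1, 3, 6 or 7. Of 5 genes that make the molybdenum cofactor, 1 passed in controls and none in KO mice. This gene, *Mocos*, the sulfurase that completes the cofactor of aldehyde oxidases, fell by 0.23 ± 0.07 in controls (adjusted p = 0.0366). That call was lost (adjusted p between 0.0505 and 0.0792) without control chow replicates 1, 2, 3, 4, 6 or 7 or control HF/HS replicates 2, 3, 5 or 6. In KO mice the log2 fold change of *Mocos* was also -0.23 ± 0.07 and did not pass (adjusted p = 0.0624).

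*Cyp26a1*, the main hydroxylase that clears retinoic acid in liver, had the widest spread of the 9 genes relative to its level. On chow the 7 controls had 14.77, 15.02, 21.82, 22.86, 23.25, 43.11 and 124.5 CPM, and the 6 KO mice had 7.123, 10.57, 11.66, 20.12, 35.66 and 36.85 CPM. On HF/HS the 7 controls had 1.922, 2.343, 2.537, 3.28, 4.679, 5.068 and 7.052 CPM, and the 7 KO mice had 1.58, 1.857, 2.273, 2.745, 3.113, 3.997 and 25 CPM. Every control on HF/HS was below every control on chow, and among KO mice only replicate 4 on HF/HS, at 25 CPM, reached the chow range.

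In controls *Cyp26a1* fell by 3.31 ± 0.55 on the log2 scale with diet, or 9.92-fold (95% interval of the log2 fold change -4.49 to -2.13, adjusted p = 0.00187). Without control chow replicate 5 it was -2.61 (adjusted p = 0.000388). In KO mice the log2 fold change was -1.78 ± 0.69 (-3.27 to -0.29) and did not pass (adjusted p = 0.147), and without KO HF/HS replicate 4 it was -2.96 and passed (adjusted p = 0.00254). The summed level of 10 pericentral hepatocyte markers, the zone in which *Cyp26a1* is known to be expressed, had medians of 8340 CPM in controls on chow and 9540 CPM in controls on HF/HS, and of 8380 and 7770 CPM in KO mice. None of the 10 was at 0 in every mouse of a group. Past the threshold, 2 were lower and 1 higher in controls and 2 were lower in KO mice. Of 7 periportal markers, 4 were lower past the threshold with diet in controls (median log2 fold change -0.35) and 2 in KO mice (-0.43), and of 7 Kupffer cell markers, none passed in controls (0.18) and 4 were higher in KO mice (0.63). Of all genes, 5.60% were called lower and 4.93% higher in controls, and 2.73% and 3.17% in KO mice. The part of these cell types and zones in the diet differences was not tested.

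The 250 bases before the start of *Cyp26a1* (RefSeq, GRCm38.p6, chr19:37697558-37697807, plus strand) are shown together with those of the receptor gene *Rarb* (chr14:16575477-16575726, minus strand), because these 2 genes moved together in controls and share a motif. Capitals mark a pair of hexamers with 5 bases between them, the kind of direct repeat to which RAR and RXR are known to bind.
Cyp26a1: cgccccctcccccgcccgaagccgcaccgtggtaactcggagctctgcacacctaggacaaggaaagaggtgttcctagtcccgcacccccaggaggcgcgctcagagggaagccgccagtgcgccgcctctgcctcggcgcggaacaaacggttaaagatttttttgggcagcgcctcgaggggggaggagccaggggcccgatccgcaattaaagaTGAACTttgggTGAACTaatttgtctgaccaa
Rarb: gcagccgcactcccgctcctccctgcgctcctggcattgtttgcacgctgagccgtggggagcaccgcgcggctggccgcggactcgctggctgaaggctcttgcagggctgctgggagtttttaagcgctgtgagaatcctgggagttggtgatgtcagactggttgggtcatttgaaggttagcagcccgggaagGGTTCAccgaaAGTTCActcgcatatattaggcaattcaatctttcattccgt

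The hexamer searched was AGGTCA, or the same with G in place of its first A or with T in place of its second G, or both, in any pair and on either strand, in the 300 bases from 250 before to 50 after each RefSeq start. Gaps of 1, 2 and 5 bases were searched. Pairs with a gap of 1 or 2 were in 0.222% and 0.268% of promoters. No member held either, and of the role list genes only a carotenoid cleavage gene did, with a gap of 1. A pair with a gap of 5 bases was found in 32 of 32841 promoters (0.0974%). All 9 members had a promoter in that table and 1 of them, *Cyp26a1*, held the pair, from -32 to -16 relative to the start (chr19:37697776-37697792). Among the 61 genes of all role lists with a promoter, *Rarb* was the only other one, from -53 to -37 (chr14:16575513-16575529). The match is on the opposite strand in *Cyp26a1*, where it reads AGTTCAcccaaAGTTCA, and on the gene's own strand in *Rarb*. These matches are a description of the letters, and binding was not measured.

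Of the 3 tested CYP26 genes, *Cyp26a1* and *Cyp26c1* passed in controls, both lower, and none passed in KO mice, where 5.60% and 2.73% of all genes were called lower. *Cyp26c1*, which lies just before *Cyp26a1* on chromosome 19 (37685581 to 37693398), ran from 1.084 to 3.823 CPM on chow and from 0.09465 to 0.8486 CPM on HF/HS in controls, and fell by 2.04 ± 0.36 on the log2 scale (adjusted p = 0.00194). It had a mean of 17.43 counts in controls on HF/HS, so its levels rest on few reads. In KO mice its log2 fold change was -0.69 ± 0.58 (adjusted p = 0.515). *Cyp26b1*, the third hydroxylase, had -0.99 ± 0.31 in controls (adjusted p = 0.0606) and -0.16 ± 0.51 in KO mice (adjusted p = 0.893). Of the 6 tested receptor genes, 2 passed in controls and 1 in KO mice, all lower, where 5.60% and 2.73% of all genes were called lower. *Rarb*, the retinoic acid receptor beta gene and itself a retinoic acid target, ran from 5.554 to 9.557 CPM on chow and from 2.75 to 4.247 CPM on HF/HS in controls without overlap, and fell by 0.93 ± 0.13 (adjusted p = 0.000273). In KO mice it ran from 5.221 to 9.151 CPM and from 3.906 to 6.17 CPM, with a log2 fold change of -0.37 ± 0.14 that did not pass (adjusted p = 0.136). *Rarg*, another receptor, fell by 0.39 ± 0.07 in controls (adjusted p = 0.00133) and fell by 0.33 ± 0.09 in KO mice (adjusted p = 0.0487), the latter with adjusted p between 0.051 and 0.108 without KO chow replicates 1, 2, 3, 4 or 5 or KO HF/HS replicates 1, 3, 4, 5, 6 or 7. The 4 receptor genes that passed in neither genotype had log2 fold changes in controls of 0.04 (*Rara*), 0.21 (*Rxra*), -0.02 (*Rxrb*) and -0.08 (*Rxrg*). Of the 6 tested genes listed as retinoic acid targets, *Cyp26a1* and *Rarb* passed in controls, both lower, and none passed in KO mice, against 5.60% and 2.73% of all genes called lower.

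Across all role lists, 53 tested genes were not among the 9. In controls 10 of them were lower and 1 higher past the threshold, where 5.60% of all genes were lower and 4.93% higher. In KO mice 6 were lower and none higher, where 2.73% of all genes were lower and 3.17% higher. Their median log2 fold change was -0.05 in controls and -0.09 in KO mice, against 0.00 over all genes in both. In neither genotype comparison did any of the 53 pass. The 2 carotenoid cleavage genes passed in no comparison.

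**Figure D4:**
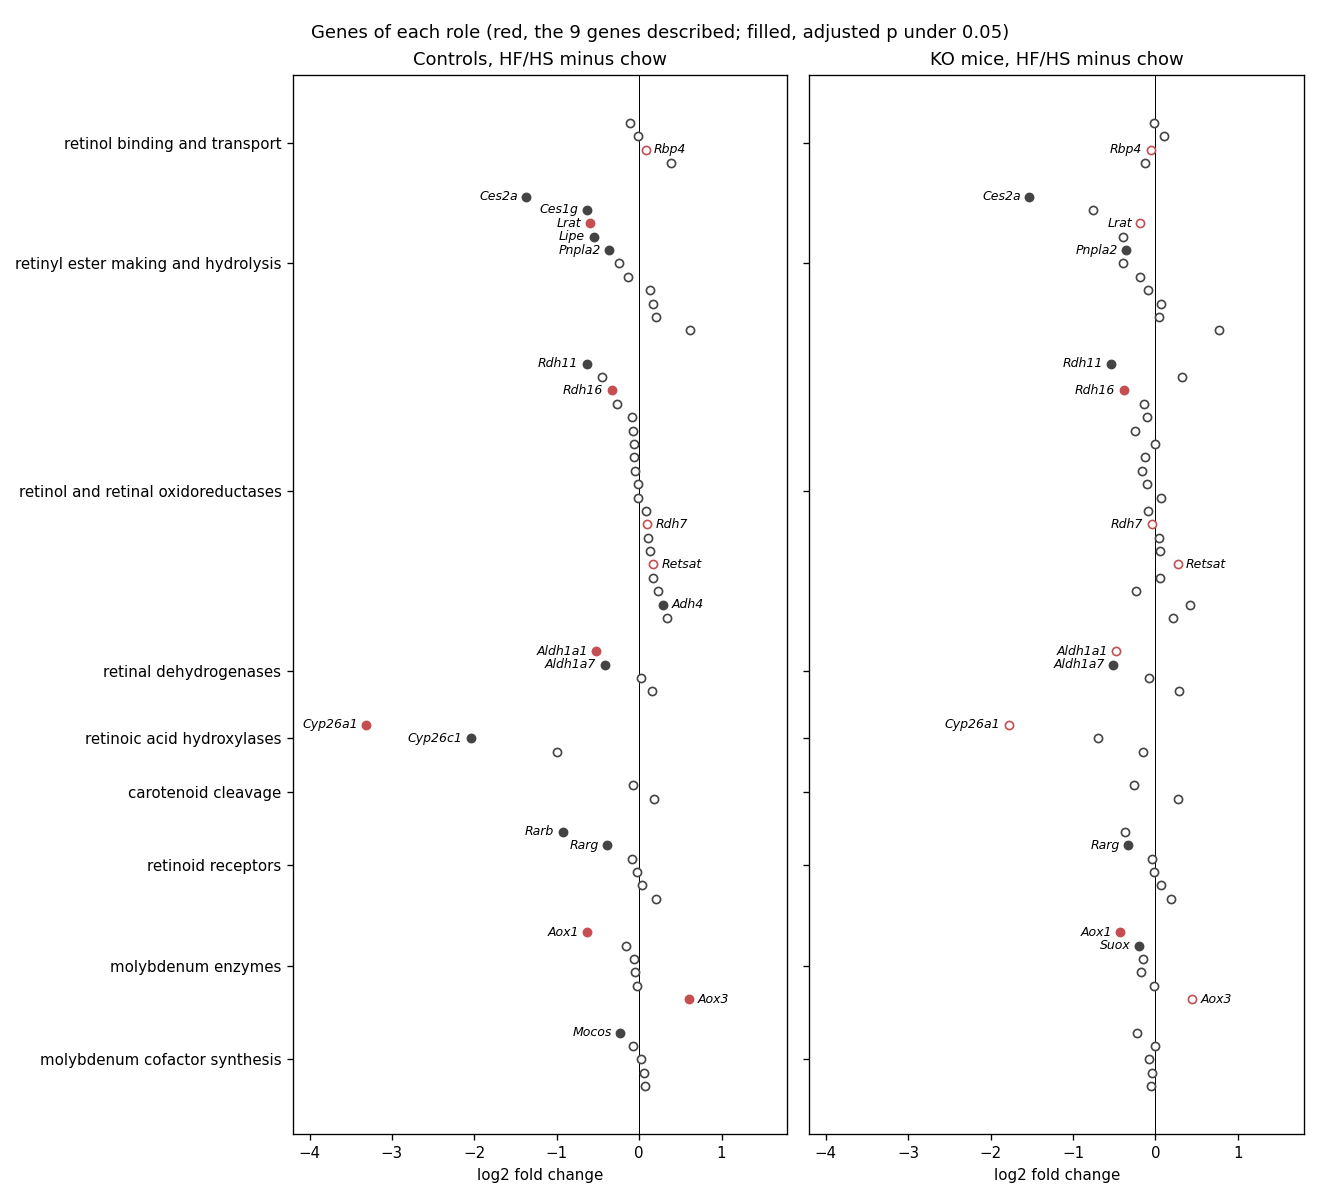
Log2 fold change of HF/HS over chow (horizontal axes) for each tested gene of 9 role lists, in controls on the left and in KO mice on the right, with genes in the same order on both sides. Red points are the 9 genes described, filled points have an adjusted p under 0.05, and most filled points lie left of 0, with *Cyp26a1* farthest at -3.31 in controls.

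*Cyp26a1* and *Lrat* were both highest in the same mouse of 2 groups. Control chow replicate 5 had the highest *Cyp26a1* (124.5 CPM) and the highest *Lrat* (32.58 CPM) of its group, and KO HF/HS replicate 4 had the highest of both in its group (25 and 19.9 CPM). The stellate marker sum was 379 CPM in the first of these mice, the top of its group's range, and 261 CPM in the second, the bottom of its group's range. Over the mice of a group, Pearson's r was taken between the log2 CPM of the 2 genes. On chow it was 0.771 in controls (rho 0.75) and 0.5 in KO mice (rho 0.371). On HF/HS it was 0.445 in controls (rho 0.464) and 0.829 in KO mice (rho 0.714). Without the 2 mice farthest from the group median of log2 *Cyp26a1* CPM, r was 0.454, -0.479, 0.474 and 0.674. By exact permutation tests, 2-sided and adjusted over 16 relations that were chosen after values were seen, p was 0.161, 0.734, 0.734 and 0.0582 for r and 0.352, 0.963, 0.806 and 0.352 for rho, so none passed.

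**Figure D5:**
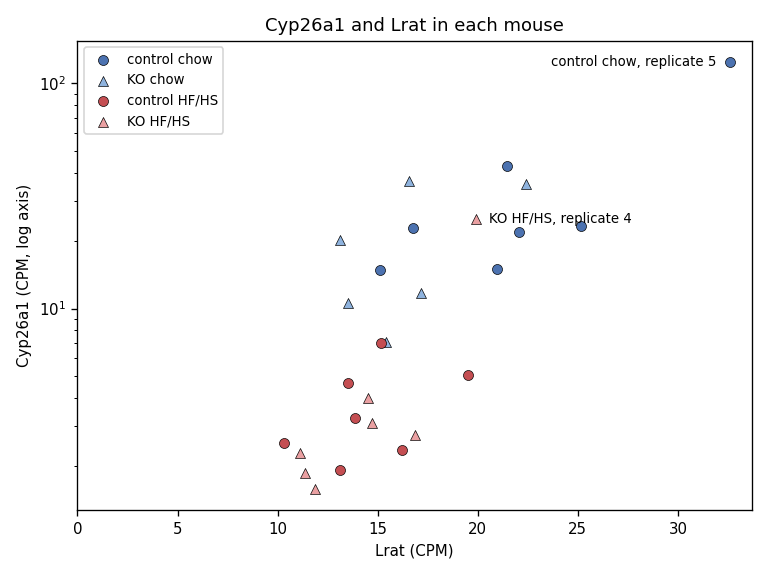
*Cyp26a1* (vertical log axis, CPM) against *Lrat* (horizontal axis from 0, CPM) in each of the 27 mice, with circles for controls, triangles for KO mice, blue for chow and red for HF/HS. Control chow replicate 5, at 124.5 and 32.58 CPM, and KO HF/HS replicate 4, at 25 and 19.9 CPM, stand at the top of their groups on both axes.

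The aldehyde oxidases did not follow each other within most groups. Pearson's r between the log2 CPM of *Aox1* and *Aox3* was -0.103 in controls and -0.0557 in KO mice on chow. On HF/HS it was -0.189 in controls and 0.922 in KO mice, where rho was 0.821. In the last group the exact permutation p adjusted over the 16 relations was 0.0444 for r and 0.352 for rho, and r was 0.664 without replicates 3 and 4, so the relation rests in part on those mice. *Rdh16* and *Rdh7* had r of 0.897 in controls on HF/HS (adjusted p = 0.0582, exact permutation test) and between -0.296 and 0.626 in the other groups.

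Over all 27 mice, the genes whose log2 CPM was most like that of *Aox1* were *Entpd5* (Pearson's r 0.9), *Tbcel* (0.889), *Gpat3* (0.886), *Akr1c19* (0.883) and *Creg1* (0.881). For *Aox3* they were *Sult2a8* (0.893), *Hsd3b5* (0.881), *Adh6-ps1* (0.877), *Ces3b* (0.864) and *Ghr* (0.855). The mice share diet and genotype groups, so these values include the group differences. After subtraction of the group means, the nearest genes to *Aox1* were *1810034E14Rik* (0.761), *Hdac11* (0.758), *Rgr* (0.725), *Mindy4* (0.724) and *2310040G24Rik* (0.705), and those nearest to *Aox3* were *Acadsb* (0.774), *Lactb2* (0.768), *Stard4* (0.768), *Ghr* (0.765) and *Sult2a8* (0.76). *Ghr*, the growth hormone receptor gene, and *Sult2a8*, a bile acid sulfotransferase gene, were in both lists for *Aox3*.

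Between genotypes on chow, *Aox1* and *Rdh16* had lower medians in KO mice, but no member passed. KO mice had 111.5 to 140.1 CPM of *Aox1* against 132.4 to 174.3 CPM in controls, and 3 of the 6 KO mice were below all controls. Its log2 fold change was -0.34 ± 0.07 (95% interval -0.49 to -0.19), which ranked 4 by p among 13571 genes (unadjusted p = 0.000238, adjusted p = 0.801). By limma voom no member passed, while by DESeq2 *Aox1* passed, with an adjusted p of 0.00418, and of 0.0227 without independent filtering, an alternative added after values were seen. By edgeR 1 gene (0.00737%) passed, which was *Hgfac*, and 812 genes (5.98%), 3 members among them, had an unadjusted p under 0.05. The other 2 of these members were *Rdh16* (-0.25 ± 0.07) and *Lrat* (-0.43 ± 0.17). *Cyp26a1* had -0.90 ± 0.59, and -0.21 without control chow replicate 5. For *Aox3* the value was -0.03 ± 0.12, and for *Aldh1a1* it was -0.07 ± 0.13. The controls on chow are shared with the diet comparison in controls.

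On HF/HS, *Rdh16* ran lower in KO mice (45.48 to 71.38 CPM against 53.92 to 92.83 CPM), with 2 KO mice below all controls. Its log2 fold change was -0.31 ± 0.10 (95% interval -0.53 to -0.09, unadjusted p = 0.00852, adjusted p = 0.424). No member passed by edgeR, DESeq2 or limma voom, and 2 genes in all (0.0148%) passed by edgeR. Of 13544 genes tested by edgeR, 1306 (9.64%) had an unadjusted p under 0.05, and only *Rdh16* among them was a member. For *Aox1* the log2 fold change was -0.14 (-0.31 to 0.02), and for *Aox3* it was -0.20 (-0.47 to 0.07). *Cyp26a1* had 0.61 (-0.73 to 1.96), and -0.56 without KO HF/HS replicate 4. With that mouse kept it was -0.52 by DESeq2 and -0.02 with the replicate number as a term, so its direction depended on the mouse and on the model. The 10 pericentral markers were lower in KO mice for 10 of 10 genes on chow (median log2 fold change -0.13) and 9 of 10 on HF/HS (-0.36). None was past the threshold, and none was at 0 in every mouse of a group. Of 7 Kupffer cell markers, 7 were lower on chow (-0.29) and 3 on HF/HS (0.06), and of 7 sinusoidal endothelial markers, 6 were lower on each diet (-0.20 and -0.16), again with none past the threshold. Of the 7 hepatocyte markers, whose summed level was higher in every KO mouse than in every control on chow, 4 had positive log2 fold changes in KO mice on each diet, and none passed. The part of these markers in the *Aox1* and *Rdh16* values was not tested.

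In a fit of all 27 mice with diet as a covariate, added after values were seen, all 9 members had negative log2 fold changes of KO over control, with a median of -0.12 against 0.00 over all 13932 genes. None passed, where 22 genes (0.158%) did. *Rdh16* had -0.28 ± 0.06 (adjusted p = 0.0627) and *Aox1* -0.24 ± 0.06 (adjusted p = 0.0664).

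The genotype effects did not differ detectably between the diets. For this difference, 0 of 13932 genes (0%) passed by edgeR and none by DESeq2 or limma voom. By edgeR 506 genes (3.63%), none of them a member, had an unadjusted p under 0.05. The estimate was 1.53 (95% interval -0.31 to 3.36) for *Cyp26a1*, 0.41 (-0.06 to 0.89) for *Lrat* and 0.20 (-0.02 to 0.42) for *Aox1*. It was -0.17 (-0.56 to 0.22) for *Aox3* and -0.06 (-0.33 to 0.21) for *Rdh16*. The same estimates compare the diet effect between genotypes, so a pass of *Lrat*, *Aldh1a1*, *Aox3* and *Cyp26a1* in controls and not in KO mice is not a difference between the genotypes that was shown.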

How the data were processed

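Liver mRNA of 27 mice was sequenced (stranded kit, paired ends). Alignment to GRCm38 by the authors used HISAT2, and they then, per the processing notes, counted reads per gene with featureCounts 1.6.3 and deposited raw counts without normalization. The annotation, strand setting and handling of reads that fit several genes were not given in the sources used here. Groups came from the genotype and diet labels, which give no batch. Rows without a gene name (3886 of 27179, with 4.13% to 12.1% of the counts) stayed out of library sizes, and rows of the same symbol were summed.

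The main test was that of edgeR 4.0.16 in R 4.3.3 (TMM, filterByExpr with minimum count 10 and total 15, robust quasi-likelihood fit, Benjamini-Hochberg adjustment over all genes tested, threshold 0.05). SE is the log2 fold change over the root of F. Each comparison was fitted on its own mice, and the difference between diets on all 27. Log2 CPM used a prior count of 2, except in the correlations of members within each group, which used none. Exon lengths and coordinates are from GENCODE M21. Alternatives were DESeq2 1.42.0, limma 3.58.1 voom, other filters and scaling, the replicate number as a term, all mice in 1 fit, and each mouse left out in turn. The paper names the BioJupies server and no test. Fits were tested on simulated counts with true log2 changes of 0.5 in some genes. Of these, edgeR recovered 58.3% for the genotype on chow and 55.6% on HF/HS. For the diet it recovered 63.3% in controls and 70.1% in KO mice, and for the difference between diets 38.2%. Smaller differences could thus be missed. Every pair of libraries of a group differed by more than sampling noise (chi-square per gene at least 17.7).

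The 9 members and the role and marker lists were chosen with earlier results of these data known. The named genes were each member, up to 3 genes per role list and comparison with the largest change past the threshold, and the 5 genes most correlated with *Aox1* and *Aox3*. Named outside this rule, after their values were seen, were *Pnpla2* in controls, *Pnpla3*, *Rdh16f2*, *Aox2*, *Aox4*, *Cyp26b1*, *Rara*, *Rxra*, *Rxrb* and *Rxrg*. So were *Rarb*, *Cyp26c1* and *Mocos* in KO mice, *Hgfac* and the called stellate markers.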

Additional observations from a re-analysis of the deposited data

Results flagged for a closer look

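In 3 of 36 groups of 6 or 7 mice, 1 mouse stood apart from the others by Dixon's test, a test that flags about 1 group in 20 by chance. *Aox1* was 132.4 CPM in control chow replicate 5, below the next lowest control on chow at 158.1 CPM. In the same mouse *Cyp26a1* was 124.5 CPM, above the next highest at 43.11 CPM. *Cyp26a1* was 25 CPM in KO HF/HS replicate 4, above the next highest at 3.997 CPM.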

How the results depend on the processing

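Over the members, 45 log2 fold changes were recomputed under 1088 alternatives in all, of which 1038 kept direction and side of the threshold, 11 lost a call, 11 gained a call and 28 changed sign. For 16 calls of other pathway genes, 295 of 345 alternatives kept the call, 50 lost it and none changed sign. The causes were not tested. Leaving out each mouse in turn gave 4 to 6 members called for the diet in controls and 2 to 3 in KO mice.

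The number of members called moved from 0 to 1 (*Aox1*) for the genotype on chow by DESeq2, with or without independent filtering, and from 2 to 4 (with *Aox3* and *Aldh1a1*) for the diet in KO mice in a fit of all 27 mice. DESeq2 called 3 members there, with *Aldh1a1* added. DESeq2 called 13 genes on chow, with 1993 genes kept for the adjustment, or 10 without that filtering, against 1 by edgeR. It called 55 against 2 on HF/HS and 1401 against 802 for the diet in KO mice.

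All changes of sign were in values that did not pass. *Cyp26a1* on HF/HS between genotypes was -0.52 by DESeq2 with or without independent filtering, -0.022 with the replicate block, and -0.56 without both mice of high *Cyp26a1*, an alternative added after values were seen under which the difference between diets was -0.35. Leaving out single mice, it ran from -0.56 to 0.82. The ranges for the genotype on chow were -0.11 to 0.059 for *Aox3* and -0.13 to 0.030 for *Aldh1a1*. On HF/HS they were -0.10 to 0.030 for *Aldh1a1*, -0.12 to 0.063 for *Lrat* and -0.072 to 0.073 for *Retsat*. For the difference between diets they were -0.11 to 0.0073 for *Rdh16* and -0.054 to 0.11 for *Aldh1a1*.

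Mouse numbers recur across groups, but of 39 same-numbered pairs only 10 had deviations that correlated above 0.1 (-0.252 to 0.369), so numbers were not taken to pair mice. The replicate block left the members called at 0 and 0 for the genotype and at 6 and 2 for the diet. It ended the calls of *Adh4* (0.29) and *Mocos* (-0.23) in controls, and of *Rarg* and *Suox* in KO mice. No filter on low counts also ended the calls of *Rarg* and *Suox*, upper-quartile normalization that of *Rarg*, and the fit of all mice that of *Adh4*. Depth limits genes with few counts, *Cyp26c1* among them.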
